A study of Mus musculus with 2 samples.

Results

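The Ncam, L1 and contactin adhesion molecules were followed as 10 genes, Ncam1, Ncam2, L1cam, Nrcam, Nfasc, Chl1, Cntn1, Cntn2, Cntnap1 and Cntnap2, out of 18311 genes with reads. They were taken by gene name. Long-read RNA sequencing was done on hippocampus (its layer, per the labels) of male B6CASTF1/J hybrid mice at 14 days of age, with no treatment named. All samples belong to 1 group of 2 libraries, replicates 1 and 2, each made from 3 pooled males and 2 µg of RNA. The sample labels name different animals for each library, while the experiment description gives the same animals for both; differences between libraries may therefore be technical. Replicate 1 held 821324 mouse reads and replicate 2 held 743862, of which the members took 510 and 544 reads.

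These genes encode cell-surface proteins of the immunoglobulin superfamily and their partners, which hold neurons, axons and glia together. NCAM proteins bind each other across cells and carry polysialic acid, and one gene gives forms that cross the membrane and a form held to it by a glycosylphosphatidylinositol (GPI) anchor. The L1 family (L1cam, Nrcam, Nfasc, Chl1) spans the membrane and binds ankyrin inside the cell, at the axon initial segment and node of Ranvier among other places. Contactins are GPI-anchored, and pair with Caspr proteins (Cntnap1, Cntnap2) at the paranode and juxtaparanode of myelinated axons.

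The sequences on which the splicing results turn are given first, 5′ to 3′ in the direction of the gene, from the GENCODE M21 transcripts of mm10. Capitals mark the optional exon, the 3 extra bases at an Ncam1 acceptor or, at the 2 Ncam1 ends, the coding bases after the ends part. Lower case marks 15 bases of the neighbouring exon or, after the 3 extra bases, of the same exon. The Ncam1 VASE exon lies at chr9:49550540-49550569 (minus strand), within the coding region of an immunoglobulin domain. The GPI-anchored end begins at chr9:49517509-49517582 and the transmembrane end at chr9:49509705-49509912, both coding and both on the minus strand. The Nrcam exons lie at chr12:44566840-44566869 and chr12:44578145-44578180 (plus strand), and the Nfasc exons at chr1:132637864-132637881, chr1:132627872-132627922 and chr1:132607003-132607047 (minus strand).
Ncam1 VASE exon: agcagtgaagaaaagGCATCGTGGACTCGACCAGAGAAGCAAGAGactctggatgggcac
Ncam1 3 extra bases (chr9:49520213-49520215): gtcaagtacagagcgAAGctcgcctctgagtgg
Ncam1 GPI-anchored end: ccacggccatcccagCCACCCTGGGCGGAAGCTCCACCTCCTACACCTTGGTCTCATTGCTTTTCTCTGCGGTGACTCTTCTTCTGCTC
Ncam1 transmembrane end: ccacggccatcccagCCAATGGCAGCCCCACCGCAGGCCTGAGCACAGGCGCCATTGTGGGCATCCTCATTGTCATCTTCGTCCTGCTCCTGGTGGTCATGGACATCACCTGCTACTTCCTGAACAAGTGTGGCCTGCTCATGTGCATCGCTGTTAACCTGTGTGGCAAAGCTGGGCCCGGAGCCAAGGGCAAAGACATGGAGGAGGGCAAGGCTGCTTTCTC
Nrcam exon of 30 bases: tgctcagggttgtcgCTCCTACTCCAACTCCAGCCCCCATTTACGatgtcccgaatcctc
Nrcam exon of 36 bases: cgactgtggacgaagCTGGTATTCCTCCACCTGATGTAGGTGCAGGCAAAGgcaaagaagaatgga
Nfasc exon of 18 bases: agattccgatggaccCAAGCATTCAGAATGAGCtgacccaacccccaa
Nfasc exon of 51 bases: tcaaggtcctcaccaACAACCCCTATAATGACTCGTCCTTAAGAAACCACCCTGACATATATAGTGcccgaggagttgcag
Nfasc exon of 45 bases: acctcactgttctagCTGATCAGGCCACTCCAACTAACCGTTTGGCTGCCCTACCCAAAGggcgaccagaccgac
The last 15 bases before the capitals are the same in both Ncam1 ends, because they belong to the exon that both share. The optional exons of Ncam1, Nrcam and Nfasc shown here have lengths that are multiples of 3.

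Counted over all models, Ncam1 and Cntn1 were the most abundant members, and L1cam and Ncam2 the least. Levels are given as reads per 1000000 mouse reads (CPM), without division by length, since each long read was counted once, whatever its length. The longest complete coding transcripts of these genes run from 5126 bases (L1cam) to 9827 bases (Cntnap2). Ncam1, the founding NCAM gene, had 194.8 CPM in replicate 1 and 279.6 CPM in replicate 2 (mean 237 ± 59.97, SD, n = 2). Cntn1, the contactin that partners Caspr at the paranode, had 200.9 and 189.6 CPM (mean 195 ± 8.02, SD, n = 2). Cntn1 was the higher of them in replicate 1 and Ncam1 in replicate 2.

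Among the L1 family, Nrcam, found with neurofascin at nodes, had 71.8 and 76.6 CPM in replicates 1 and 2. Nfasc, the ankyrin-binding neurofascin gene, had 60.9 and 48.4 CPM. Chl1, the close homolog of L1, had 29.2 and 40.3 CPM, and L1cam itself had 7.31 and 5.38 CPM. Over all models these 4 genes kept that order in both libraries, without overlap between them. With annotated transcripts alone they did not: the mean was 5.80 CPM for Nrcam, 12.5 CPM for Chl1 and 0 for Nfasc and L1cam, with 140.1 CPM for Cntn1 and 1.28 CPM for Ncam1.

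Cntnap2, which encodes the Caspr2 protein of the juxtaparanode, had 20.7 CPM in replicate 1 and 55.1 CPM in replicate 2, a range that overlaps those of Chl1 and Nfasc. Cntn2, the contactin partner of Caspr2, had 13.4 and 17.5 CPM. Cntnap1, the paranodal Caspr gene, had 15.8 and 9.41 CPM, which overlaps Cntn2. Ncam2, the NCAM gene best known from olfactory axons, had 6.09 and 9.41 CPM and overlaps L1cam. A count of 0 would allow up to 3 reads, 3.65 CPM in replicate 1 and 4.03 CPM in replicate 2. Every member lay above that limit in both libraries.

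**Figure D1:**
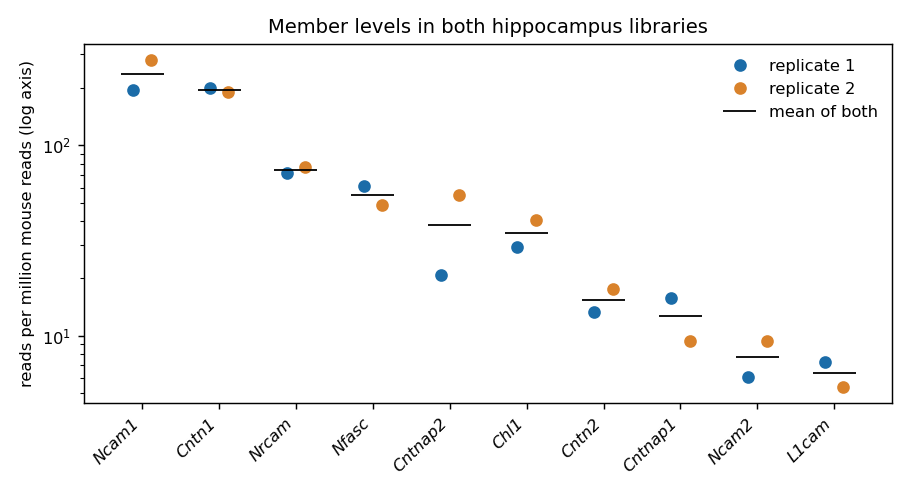
Reads per 1000000 mouse reads of each member (log axis) in replicate 1 (left, blue) and replicate 2 (right, orange), with the mean as a bar. Ncam1 and Cntn1 lie highest, at means of 237 and 195, and Cntnap2 has the widest gap between libraries, 20.7 against 55.1.

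The series holds no second condition, and the libraries were compared only to see how far each level repeats. Of the members, 8 had at least 20 reads over both libraries and could be tested (Fisher's exact test, two-sided, Benjamini-Hochberg over 8875 genes); L1cam with 10 reads and Ncam2 with 12 could not. Of these, 2 were called, both lower in replicate 1, while 1.58% of all genes tested were called in either direction and 0.744% as lower in replicate 1. Cntnap2 counted 17 reads in replicate 1, against 41 in replicate 2 (log2 ratio of replicate 1 over replicate 2 -1.39, adjusted p = 0.0395, Fisher's exact test). Ncam1 had 160 and 208 reads (log2 ratio -0.52, adjusted p = 0.0409, Fisher's exact test). Both calls depend on the settings: median-of-ratios library sizes move the adjusted p to 0.0521 for Cntnap2 and 0.0929 for Ncam1 (Fisher's exact test), and 3 other settings also end the Ncam1 call (adjusted p 0.0598 to 0.0676). The Cntnap2 call was kept with models of at least 2 reads (log2 ratio -1.92, adjusted p = 0.0018) and with reads over the same exons (-1.80, adjusted p = 0.0045), by Fisher's exact test. These p-values set the libraries against counting error alone and take no account of the usual spread between replicates. The other 6 tested members had log2 ratios from -0.46 (Chl1) to 0.71 (Cntnap1), with adjusted p of 0.818 or more (Fisher's exact test). The median log2 ratio of the 8 tested members was -0.23, beside -0.01 over all genes tested.

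Several markers of cell types differed between the libraries, most of them of myelin. Of 12 markers of myelinating oligodendrocytes, all had reads, 8 could be tested and 6 were called, each higher in replicate 1. Their summed level was 5915 CPM in replicate 1 and 2951 CPM in replicate 2. The choroid plexus marker Ttr (193.6 and 87.4 CPM), the 1 of 3 with enough reads to test, was also called higher in replicate 1. Of 6 astrocyte markers, all tested, 1 was called, Aldoc, higher in replicate 1 (1709 and 1387 CPM). The median log2 ratio of the astrocyte markers was -0.11. Cntnap1 and Nfasc had the higher value in replicate 1, Cntn2 and Cntnap2 in replicate 2, and the part of these cell types in the differences was not tested. In bulk tissue, fewer cells of a type and less RNA per cell cannot be told apart. Markers of hippocampal and glutamatergic neurons were present, with all 11 detected at a summed 4425 and 4654 CPM, and 1 of them, Ccn3, was called lower in replicate 1 (322.6 CPM, against 454.4 CPM in replicate 2). The Schwann cell marker Prx, a sign of peripheral nerve, had 0 reads in both libraries.

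Many member reads did not match a full annotated transcript. The models fall into classes by how they match the catalogue: annotated transcript, incomplete splice match (a part of one), new combination of catalogue splice sites, new splice site, and genomic (unspliced or unmatched). Annotated transcripts took 27.8% of member reads in replicate 1 and 22.8% in replicate 2 (95% Wilson intervals 24.1 to 31.9% and 19.5 to 26.5%). Over all known genes they took 72.1% and 70.5%. Genomic models took 20.6% and 23.9% of member reads, against 6.49% and 7.82% over all known genes. The members' intervals lie below those over all genes for annotated transcripts and above them for genomic models. These shares are sums over genes of unequal depth, in which Ncam1 alone gave 160 and 208 reads.

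**Figure D2:**
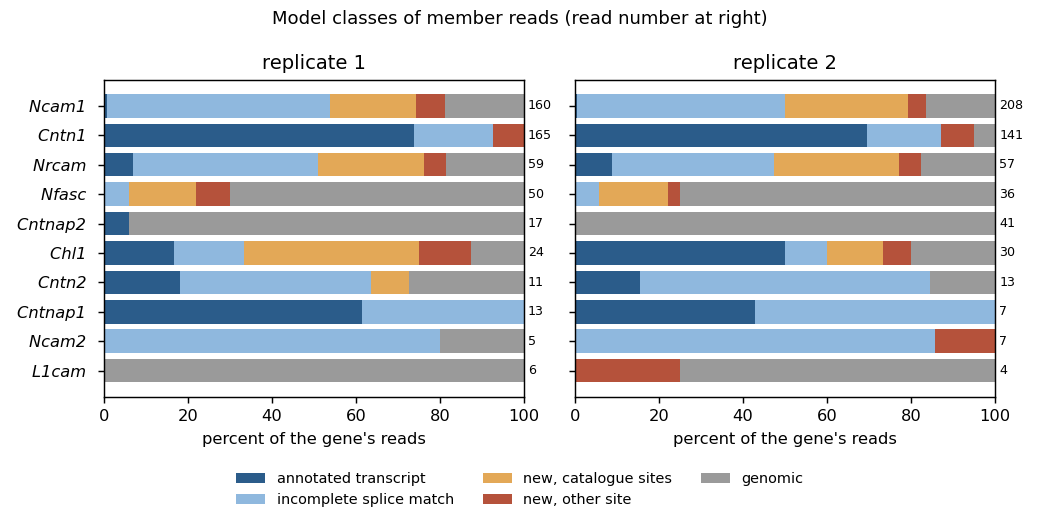
Share of each member's reads (percent, horizontal axis) by model class in replicate 1 (left panel) and replicate 2 (right panel), with the number of reads at the right of each bar. Cntn1 is mostly annotated transcripts, with 122 of 165 and 98 of 141 reads, while Cntnap2 and L1cam are mostly genomic.

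Cntn1 was the member seen whole most often. Of its reads, 122 in replicate 1 and 98 in replicate 2 were annotated transcripts. Cntn1-204 held 88 and 79 of them and Cntn1-202 held 34 and 19, both with 24 exons. These differ in their first exon, upstream of the coding sequence. Among reads that held either first exon, that of Cntn1-204 was present in 98 of 135 reads (72.6%, 95% Wilson interval 64.5 to 79.4%) in replicate 1 and 82 of 108 (75.9%, 67.1 to 83.0%) in replicate 2. The other reads held that of Cntn1-202, 37 and 26, so the intervals of the libraries overlap. The first intron of Cntn1-204 is 164992 bases long and was held by 96 and 80 reads.

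A minority of Cntn1 reads ended early, in an exon outside the catalogue. The exon begins at chr15:92285556, 14201 bases into the intron after exon 15 of Cntn1-204. It was the last exon of 11 reads in replicate 1 and 6 in replicate 2, while 132 and 110 reads spliced past it. The share was 7.69% (95% Wilson interval 4.35 to 13.3%) and 5.17% (2.39 to 10.8%). In replicate 1, 9 of these reads began at the first exon of Cntn1-204 and 2 at that of Cntn1-202, and in replicate 2, 3 began at that of Cntn1-202 and the others further downstream. Such reads leave out the catalogue exons after exon 15, where the coding sequence continues.

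Ncam1 reads showed each of the membrane forms, with the transmembrane ends in the large majority. The GPI-anchored end, which gives the NCAM120 form, has its own last exon (chr9:49517278-49517582). It was present in 17 of 128 reads with either end in replicate 1 (13.3%, 95% Wilson interval 8.46 to 20.2%) and 23 of 173 in replicate 2 (13.3%, 9.03 to 19.2%). Fisher's exact test between the libraries gave p = 1 (two-sided). Among transmembrane reads, the 801-base exon that tells NCAM180 from NCAM140 (chr9:49506853-49507653) adds to the cytoplasmic tail. It was held by 18 of 107 informative reads in replicate 1 (16.8%, 10.9 to 25.03%) and 26 of 146 in replicate 2 (17.8%, 12.5 to 24.8%), and Fisher's exact test gave p = 0.868 (two-sided). The form without it, NCAM140, was therefore the most frequent of the 3.

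The VASE exon, the 30 bases shown above, was neither rare nor constant. It was included in 42 of 77 informative reads in replicate 1 (54.5%, 95% Wilson interval 43.5 to 65.2%) and 59 of 115 in replicate 2 (51.3%, 42.3 to 60.3%). Of the 2272 variable exons of all genes, 1 was called between the libraries (0.044%), and none of the 6 in members was (lowest unadjusted p 0.12, Fisher's exact test). Long reads show whether VASE goes with an end. It was in 7 of 11 GPI-anchored reads in replicate 1 and 8 of 18 in replicate 2, beside 35 of 66 and 51 of 97 transmembrane reads. The NCAM180 exon and VASE were tested as a pair over 66 and 97 reads, and were not called linked (adjusted p = 0.358 in replicate 1 and 1 in replicate 2, Fisher's exact test). With annotated transcripts and incomplete matches alone the pair was called linked (adjusted p = 0.013 and 0.0044, Fisher's exact test); in the catalogue, the transcript that holds VASE also holds the NCAM180 exon. The test over all spliced reads rested on 11 and 17 reads with the NCAM180 exon.

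Ncam1 also chose between acceptors 3 bases apart at the exon before the ends part. The 3 extra bases were present in 27 of 110 reads in replicate 1 (24.5%, 95% Wilson interval 17.4 to 33.4%) and 26 of 152 in replicate 2 (17.1%, 11.9 to 23.9%), which did not pass (Fisher's exact test, two-sided, p = 0.162). They were in 15 of 42 reads with VASE and 5 of 35 reads without it in replicate 1, and in 7 of 59 and 11 of 56 in replicate 2, so the libraries lean opposite ways. A donor 4 bases longer was used by 8 of 106 and 10 of 142 reads, and this length does not keep the frame. The Ncam1 catalogue exons of 15 and 3 bases, downstream of that donor, were in 0 of 108 and 0 of 151 reads. Whether bases of such short exons were aligned as part of a longer neighbouring exon was not tested, so these counts do not show skipping.

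Among annotated and new models, the most common Ncam1 structure joined VASE with a transmembrane end and was not in the catalogue. It has 18 exons without the NCAM180 exon, and took 12 of 45 reads of annotated and new models in replicate 1 and 23 of 71 in replicate 2. The same structure with the 3 extra bases had 7 and 5 reads. Incomplete matches were left out of this ranking, though they took more Ncam1 reads than annotated and new models together in both libraries. The catalogue first exon was held by 2 spliced Ncam1 reads in replicate 1 and 1 in replicate 2, so this structure is itself cut short at its start. Reads cut short in the same way but without VASE can match part of a catalogue transcript and count as incomplete matches. The ranking can therefore favour structures with VASE by its class rule. With incomplete matches included, VASE was in 35 of 66 transmembrane reads in replicate 1 and 51 of 97 in replicate 2. Which structure was the most common over all Ncam1 reads was therefore not determined. Over both libraries, 77 spliced Ncam1 structures were seen and 28 were in both.

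The start of Ncam1 was hardly seen. The catalogue first exon, which holds the start codon, overlapped 2 reads in each library, 1.25% and 0.962% of its reads. It is followed by an intron of 228777 bases, which no read held. Of its spliced reads, 54 of 130 in replicate 1 and 75 of 174 in replicate 2 began in the second exon. Ncam2 has an intron of 231740 bases at the same place, held by 0 and 0 reads, and Cntnap2 has introns of 593607, 275610 and 204803 bases, held by none either. A Cntnap2 intron of 154681 bases was also held by no read, and most Cntnap2 reads lie in its last exon.

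Such absence was shared by most catalogue introns of 200000 bases or more in tested protein-coding genes. Among catalogue introns of 150000 to 200000 bases in tested protein-coding genes, 116 of 166 in replicate 1 and 112 of 166 in replicate 2 were held by a read, which includes the first intron of Cntn1. Among those of 200000 to 250000 bases, 1 and 4 of 59 were, and of 105 longer introns, 0 and 0. The share thus dropped to 1.69% and 6.78%, against 69.9% and 67.5% for the shorter class. The part of alignment settings in this drop was not tested. Over all models of known genes, with introns in or outside the catalogue, 34 and 29 reads had a longest intron of 250000 bases or more. Ncam1, Ncam2 and Cntnap2 reads cannot show here which first exon they came from.

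**Figure D3:**
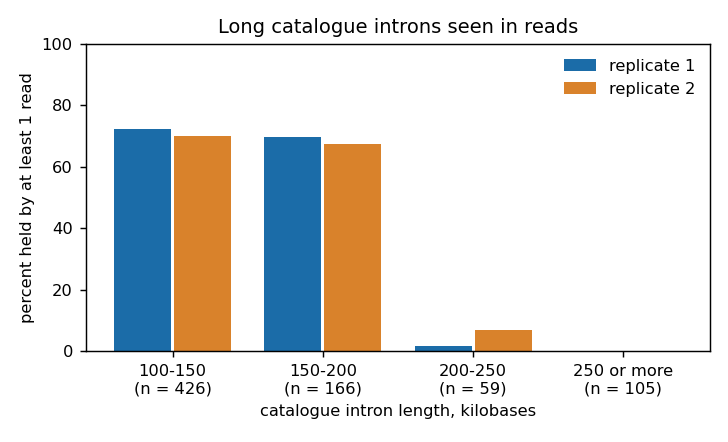
Percent of catalogue introns held by at least 1 read (vertical axis) by intron length in kilobases (horizontal axis), in replicate 1 (blue) and replicate 2 (orange). The share lies between 67.5% and 72.3% up to 200 kilobases and falls to 1.69% and 6.78% from 200 to 250, with none above.

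**Figure D4:**
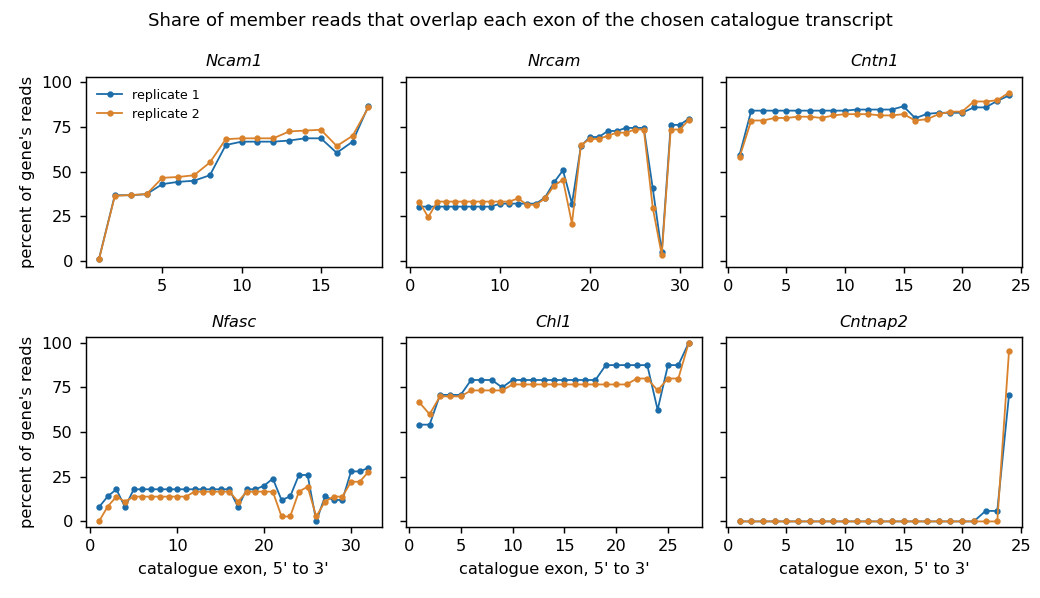
Percent of a gene's reads that overlap each exon of a chosen catalogue transcript (vertical axis), 5′ to 3′ (horizontal axis), in replicate 1 (blue) and replicate 2 (orange). The transcript has the most exons among protein-coding ones whose coding length is a multiple of 3. For Ncam1 it is Ncam1-204, with 18 exons, which holds neither VASE nor the NCAM180 exon. Cntn1 is nearly level along its length, the first Ncam1 exon is close to 0, and most Cntnap2 reads overlap its last exon, 12 of 17 in replicate 1 and 39 of 41 in replicate 2.

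Among the member exon pairs tested over all spliced reads, the one called linked was in Nrcam. The 30-base exon was included in 14 of 30 informative reads in replicate 1 (46.7%, 95% Wilson interval 30.2 to 63.9%) and 8 of 26 in replicate 2 (30.8%, 16.5 to 50.0%). The 36-base exon was included in 24 of 44 (54.5%, 40.1 to 68.3%) and 17 of 42 (40.5%, 27.0 to 55.5%). Neither was called between libraries (adjusted p = 1 for both, Fisher's exact test). Without incomplete matches the mean inclusion was 24.4% for the 36-base exon, against 47.5% over all spliced reads, and 26.1% for the 30-base exon, against 38.7%.

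The 2 Nrcam exons sat on the same molecules. In replicate 1, 13 reads held both, 1 held the 30-base exon alone, 0 held the 36-base exon alone and 16 held neither. In replicate 2 these counts were 6, 2, 0 and 18. No read thus had the 36-base exon without the 30-base exon among reads that covered both. The adjusted p was 1.3e-06 in replicate 1 and 6.5e-04 in replicate 2 (Fisher's exact test within each library, over reads). Of 1756 exon pairs of all genes, 567 (32.3%) were linked in both libraries, and of the 4 pairs tested in members this was the 1 called. It was also called without incomplete matches (adjusted p = 0.0043 and 0.0066, Fisher's exact test), and had too few reads for a test with annotated transcripts and incomplete matches alone.

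Nrcam reads made other choices too. An exon of 153 bases was included in 3 of 45 reads in replicate 1 and 2 of 42 in replicate 2. A donor that adds 9 bases to a 177-base exon was used by 13 of 44 reads (29.5%) and 18 of 42 (42.9%), with overlapping intervals. The 18-base exon was in 0 of 18 and 0 of 19 reads, and the 12-base exon near the end of the coding sequence was in 0 of 45 and 0 of 42. A donor 4 bases longer on the 79-base exon, which lies upstream of the 12-base exon, was used by 9 of 45 and 5 of 42 reads. This length does not keep the frame. Whether bases of the short exons were aligned as part of a neighbouring exon was not tested. Among annotated and new models, the structure with the most reads, 9 of 22 and 5 of 25, was a new combination of 28 exons. It lacks the 30-base exon, and the annotated Nrcam-202 had 4 and 5 reads. Incomplete matches, with 26 and 22 reads, were left out of this ranking. One genomic model with 11 and 10 reads ran past the annotated gene end, to chr12:44605198.

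**Figure D5:**
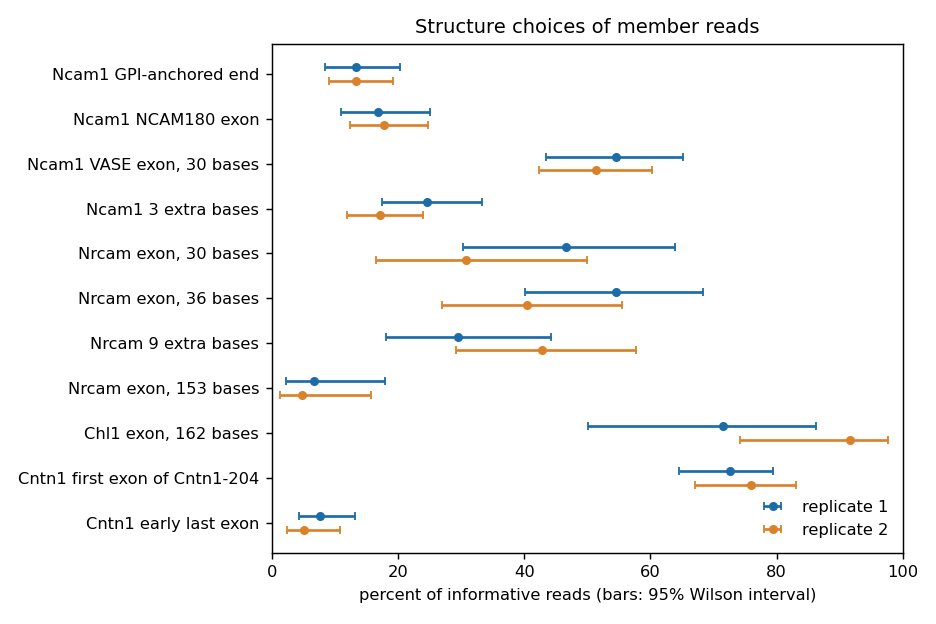
Percent of informative reads that made each choice (horizontal axis) in replicate 1 (blue) and replicate 2 (orange), with 95% Wilson intervals as bars. The GPI-anchored end sits at 13.3% in both libraries, and the VASE exon at 54.5% and 51.3%.

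Nfasc reads fell into 2 forms that differ at several places at once. Neurofascin is known as a neuronal form with a mucin-like stretch and a glial form that lacks it and has an additional fibronectin type III domain. In the catalogue, an exon pair of 205 and 116 bases (321 bases) and a block of 3 exons of 237, 117 and 153 bases (507 bases) are both optional. In the block, 42.0% of codons are for serine, threonine or proline, against 20.6% in the pair and 23.7% over the Nfasc-207 coding sequence. Of 12 reads in replicate 1 that covered both places, 6 held the pair without the block and 6 the block without the pair. Of 5 in replicate 2, 1 held the pair, 3 the block and 1 neither. No read of either library held both.

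The short Nfasc exons shown above went with these forms. In replicate 1, 4 reads with the block also held the 18-base and 45-base exons and lacked the 51-base exon. Another 4 reads, with the pair, held the 51-base exon and lacked the 18-base and 45-base exons, and 1 read with the pair lacked all 3. In replicate 2, 3 reads were of the first kind and 1 of the second. A 174-base exon was 11 bases longer in all 9 block reads that covered it (6 and 3) and in 0 of the 7 such pair reads (6 and 1). The 15-base exon that follows it in the catalogue was in 0 of 13 and 0 of 6 reads, and whether its bases were aligned as the longer exon was not tested. With 14 and 9 spliced reads, these exons fell below the minimum for a test, so the counts are a description. The glial and neuronal forms cannot be assigned to cells in bulk tissue, and the myelin markers were higher in replicate 1, where the pair had 6 reads beside 1 in replicate 2; the part of myelin was not tested.

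Most Chl1 reads reached the start of the gene. The exon with its start codon overlapped 17 of 24 reads in replicate 1 and 21 of 30 in replicate 2. Chl1-201, the annotated form of 27 exons, had 4 of 17 and 15 of 21 reads of annotated and new models. A 162-base exon was included in 15 of 21 reads (71.4%, 95% Wilson interval 50.0 to 86.2%) in replicate 1 and 22 of 24 (91.7%, 74.2 to 97.7%) in replicate 2, which was not called (adjusted p = 1, Fisher's exact test). A 48-base exon was in 4 of 19 and 1 of 22 reads, below the minimum for a test.

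Cntnap2 and L1cam were counted mostly from their last exon. Of Cntnap2 reads, 11 of 17 in replicate 1 and 39 of 41 in replicate 2 were unspliced and lay within the last exon, which is 5799 bases long. One model there had 30 reads in replicate 2, and the call on this gene rests on such reads. The exon with the Cntnap2 start codon overlapped 0 reads in both libraries. L1cam had 6 of 6 and 3 of 4 reads unspliced within its last exon, so its optional exons of 15 and 12 bases had at most 1 informative read. Nfasc likewise had 29 of 50 and 24 of 36 reads there, and its level rests mostly on them. Model ends were set by the models rather than by single reads, so 3′ end positions are not compared.

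Cntnap1, Cntn2 and Ncam2 were shallow but spliced. Cntnap1-201, with 24 exons, took all 8 and 3 reads of annotated and new models. Cntnap1 exons are overlapped by models of known genes on the other strand, with 25 and 16 reads. Cntn2 had 2 annotated reads in each library and 5 and 9 incomplete matches. Ncam2, like Ncam1, has a GPI-anchored and a transmembrane end, and 1 of 4 reads in replicate 1 and 1 of 6 in replicate 2 had the GPI-anchored one.

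Genes that act with these molecules were followed in 6 partner lists, in which 1 gene was called between libraries. Over all 8875 genes tested, 911 had an unadjusted p under 0.05 (Fisher's exact test), to be set beside the count of each list. Of 19 ankyrin, spectrin and nodal channel genes, which anchor the L1 family, 15 could be tested and 0 were called, with 2 at an unadjusted p under 0.05 (Fisher's exact test, median log2 ratio -7.5e-04). Sptan1, the alpha spectrin, had 207 CPM in both libraries, and the potassium channel subunit Kcnab2 had 210.6 and 173.4 CPM. Of 9 other contactin and Caspr genes, Cntnap4 with 11.0 and 17.5 CPM was the 1 with enough reads to test and was not called. Cntn3 had 2.44 and 10.8 CPM, Cntn4 7.31 and 4.03 CPM and Cntnap3 9.74 and 1.34 CPM.

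Of 8 genes of polysialic acid synthesis, 5 could be tested and 0 were called, with 0 at an unadjusted p under 0.05 (Fisher's exact test, median log2 ratio 0.12). Cmas, which activates sialic acid, had 252 and 243.3 CPM and Gne, the first enzyme of sialic acid synthesis, 49.9 and 30.9 CPM. The sialyltransferases St8sia5 and St8sia3 had 86.5 and 79.3 CPM and 51.1 and 44.4 CPM. St8sia2 and St8sia4, the polysialyltransferases of NCAM, were close to the limit that 0 allows, with 2 and 2 reads for St8sia2 and 3 and 5 reads for St8sia4.

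Of 17 extracellular partners and proteases, 13 could be tested and Mag, a myelin adhesion molecule, was the 1 called, with 130.3 CPM in replicate 1 and 48.4 CPM in replicate 2 (adjusted p = 1.4e-05, Fisher's exact test). At an unadjusted p under 0.05 were 5 of the 13, beside 911 of the 8875 genes tested in all; the list's median log2 ratio was -0.30. Bace1, a protease, had 166.8 and 184.2 CPM, Fgfr1, a receptor that binds NCAM, 135.1 and 166.7 CPM, and Nrp1, which pairs with L1, 129.1 and 118.3 CPM. Gdnf had 0 reads in both. Of 15 cytoplasmic partners, 13 could be tested and 0 were called, with 1 at an unadjusted p under 0.05 (Fisher's exact test, median log2 ratio 0.01). They were led by Prnp (1193 and 1182 CPM, a GPI-anchored surface protein placed on that list), Gap43 (366.5 and 450.4), Fyn (406.7 and 388.5) and Sdcbp (344.6 and 320.0).

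Of 14 splicing regulators, 13 could be tested and 0 were called, with 1 at an unadjusted p under 0.05 (Fisher's exact test, median log2 ratio -0.14). Rbfox3 had 277.6 and 297.1 CPM, Hnrnpa1 211.9 and 208.4 CPM, Rbfox1 93.8 and 111.6 CPM, and Ptbp2 77.9 and 115.6 CPM.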

How the data were processed

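Per the labels, both libraries are long-read RNA sequencing of 1 group. Per the file headers, the authors deposited raw read counts per transcript model, with each model's number of exons and length, and exon positions on mm10 with GENCODE M21. Aligner and caller versions were not given in the sources used here. Depth was 821324 and 743862 mouse reads; intervals and limits cover counting error only, since amplified reads are not independent molecules. Reads were summed per gene over models of known genes, and CPM divides by mouse reads. Log2 ratios are replicate 1 over replicate 2 after 0.5 reads were added. Exon inclusion is the reads that hold an exon over those plus reads whose intron spans it, from spliced classes; exons needed 20 such reads per library and a mean of 5% to 95%. Pairs were linked when Fisher's adjusted p was under 0.05 in both libraries with one sign. Tests used SciPy 1.17.1 (Fisher's exact), and edgeR 4.0.16 (TMM) and DESeq2 1.42.0 gave other library sizes for the counts. The scripts were tested on simulated data. Named were all members, their variable exons, short exons, linked pairs, transcripts with at least 5 reads and 10% of reads, and of each list the 4 most abundant genes, those at 0 and those called; a few of these are not reported here. Sequences came from the GENCODE M21 transcripts. The members and lists were chosen with earlier results of these data known. Single-exon models carry a strand, but how it was set is not stated in the labels or headers.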

Additional observations from a re-analysis of the deposited data

Results flagged for a closer look

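Models that belong to no known gene, on the strand opposite to a member, overlapped exons of 4 members with more than 3 reads in both libraries, in data outside the main counts and with no control samples. Over Ncam1 exons there were 52 such reads in replicate 1 and 89 in replicate 2, nearly all unspliced models in its last exon. Over Nfasc exons there were 68 in replicate 1 and 34 in replicate 2, of which 67 and 34 were of single-exon models. Nfasc itself had 50 and 36 reads, of which 14 and 9 were spliced. Over Chl1 exons there were 6 in replicate 1 and 6 in replicate 2, and over Cntn1 exons 8 in replicate 1 and 5 in replicate 2. How the strand of unspliced reads was set is not stated in the labels or headers, and its part in these counts was not tested.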

How the results depend on the processing

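The number of genes called between libraries was 140 and stayed between 99 and 152 under 5 of its alternatives; annotated transcripts alone gave 73. The Ncam1 call was lost (adjusted p 0.0598 to 0.0929, Fisher's exact test) with models of at least 2 reads, TMM, median-of-ratios and reads over the same exons, and the Cntnap2 call with median-of-ratios (0.0521); no direction turned for either. Variable exons called numbered 1, and 0 at a minimum of 10 reads, 0 at a mean inclusion of 10% to 90%, 4 without incomplete matches and 7 with annotated transcripts and incomplete matches alone. Linked exon pairs numbered 567, and 148 of 238 tested with annotated transcripts and incomplete matches alone. The Ncam1 GPI-anchored share was 13.29% as a mean of both libraries and 13.28% to 13.29% with 1 library left out. It was 22.8% without incomplete matches, 12.1% with genomic models included, and 15.2% over reads that hold the last shared exon, an alternative chosen after seeing the data. The NCAM180 share was 17.3%, 16.8% to 17.8% with 1 library left out, and 25% without incomplete matches. Annotated transcripts alone left neither Ncam1 share a value in both libraries. VASE inclusion (mean 52.9%) was 78.0% without incomplete matches and 21.7% with annotated transcripts and incomplete matches alone, where new models are left out by construction. The class rule bears on the 78.0% too, since reads without VASE that lack the catalogue first exon can count as incomplete matches. How much of that shift this rule gave, and the cause of the other shifts, was not tested. Depth limits the members with few reads: L1cam, Ncam2, Cntn2 and Cntnap1 had too few for exon tests.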
